A study of Homo sapiens with 2 samples.

Results

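The genes described here encode translation initiation factors (symbols that start with EIF) and elongation factors (symbols that start with EEF). They were chosen by symbol, with earlier results of these data known. Probe sets with 1 gene symbol were taken, and the EIF2AK kinase genes, EIF4EBP1, EEF1E1 and Y-linked genes were left out. This gave 45 genes of 11963 genes with such a probe set, with 9 EIF2, 12 EIF3, 9 EIF4, 4 EIF5 and 7 EEF genes and 4 outside these groups. The RefSeq gene table (GRCh38.p14) holds all 45 symbols. Not every member is a factor itself: EIF4EBP2 and EIF4ENIF1 encode binders of eIF4E, EIF4A3 a subunit of the exon junction complex, and EEF1AKMT2, EEF1AKMT3 and EEF2KMT methyltransferases that act on elongation factors. The symbols EIF3C, EIF3CL, EIF4A1, EIF4A2, EIF4EBP3, EEF1B2 and EEF1G occurred only on probe sets that name several genes, so these genes have no value of their own here.

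RNA came from L-428, a Hodgkin's lymphoma (HL) cell line grown in culture, and was hybridised to 2 Affymetrix HG_U133A arrays. On 1 array the cells carried pcDNA6.2-GW/EmGFP-miR-DUSP5, a vector from which an artificial microRNA against DUSP5 is made. On the other they carried pcDNA6.2-GW/EmGFP-miR-neg, which served as the control and which the study's methods call empty. Both groups are therefore transfected cells of the same line. Only 1 microRNA construct was used, and the time between transfection and RNA extraction and any sorting of transfected cells are not given in the sources used here. Signals are those of the MAS5 algorithm, which the authors scaled to the same target intensity on each array. Because each condition had 1 array, there is no replicate check and no p-value. The error given beside a log2 ratio (knock-down over control) is the standard deviation (SD) by which such ratios varied when a gene had several probe sets of similar signal. It was 0.41 where the signal was 200 to 500, 0.36 up to 1000, 0.30 up to 3000 and 0.26 beyond, and it does not cover the spread between cultures. In such bulk RNA, fewer cells that express a gene and less RNA per cell cannot be told apart.

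DUSP5, the targeted gene, had a signal of 628 in control cells and 368 after knock-down. Of 8 listed HL markers 7 had a mean signal of at least 200, and CCL22 (16.9 and 117) did not. Of the 7, 6 had a log2 ratio above 0, with TNFRSF8 (CD30) the highest (signals of 1724 and 3618, ratio 1.07). FUT4 went the other way, with 756 and 317 (ratio -1.25). None of 12 B cell, T cell and myeloid genes on the arrays reached that level. Their summed signals on the control and knock-down arrays were 315 and 452 for 5 B cell genes, 247 and 415 for 4 T cell genes and 96.9 and 94.3 for 3 myeloid genes, and none was at 0. The highest single one was CD3D with 189 after knock-down. Genes with high signals tended to be higher on the knock-down array as a whole. The median log2 ratio was 0.41 over 566 probe sets whose mean signal was 5000 or more, against -0.01 over 3951 probe sets at 200 to 500. Values after subtraction of a lowess fit of the ratio on the signal are therefore given beside those as deposited, since many translation factors have high signals.

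Translation begins when eIF2 brings the initiator tRNA to the small ribosomal subunit, where eIF1, eIF1A, eIF3 and eIF5 assemble around it. The eIF4 proteins bind the cap of the mRNA, unwind its leader and connect it to eIF3. After the large subunit has joined, eEF1A delivers the aminoacyl-tRNAs and eEF2 moves the ribosome along the mRNA. In proliferating lymphoid cells this machinery is abundant. Many mRNAs for elongation factors, eIF3 subunits and ribosomal proteins begin with a C followed by a run of pyrimidines, known as a 5′ terminal oligopyrimidine tract, through which the kinase complex mTORC1 governs their translation.

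The bases around the annotated start show which members with a promoter sequence hold this feature. RefSeq promoters of GRCh38.p14 were found for 35 of the 45 genes. Where a gene had several, the one with the lowest coordinate was used. None was found for EIF3E, EIF3H and EEF1D, which were at least 2-fold higher as deposited. EIF3A, EIF3G, EIF3L, EIF2S2, EEF1A2, EEF1AKMT3 and EEF2KMT also had none. Whether these genes hold the feature was not examined. In the lines that follow, each window holds 30 bases before the start and 30 from it, 5′ to 3′ on the strand of the gene, and capitals mark the unbroken run of C and T that begins at the start. EIF3K (chr19:38619158-38619217, plus strand), EIF3D (chr22:36529137-36529196, minus strand), EIF4B (chr12:53006426-53006485, plus strand) and EEF2 (chr19:3985434-3985493, minus strand) are shown as members above 0 as deposited that start with C and further pyrimidines, and EIF2D (chr1:206612436-206612495, minus strand) as the member that does so and was lower on the knock-down array as deposited. EIF4G1 (chr3:184314576-184314635, plus strand), which was higher, and EIF1AX (chrX:20141809-20141868, minus strand) and EIF4EBP2 (chr10:70404115-70404174, plus strand), which were lower, do not start with it.
EIF3K: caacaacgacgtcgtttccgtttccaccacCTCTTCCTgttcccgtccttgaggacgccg
EIF3D: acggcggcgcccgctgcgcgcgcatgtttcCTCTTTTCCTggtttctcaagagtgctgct
EIF4B: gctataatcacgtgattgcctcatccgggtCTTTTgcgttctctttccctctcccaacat
EEF2: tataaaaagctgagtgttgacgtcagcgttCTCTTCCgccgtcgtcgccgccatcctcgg
EIF2D: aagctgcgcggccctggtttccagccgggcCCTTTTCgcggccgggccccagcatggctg
EIF4G1: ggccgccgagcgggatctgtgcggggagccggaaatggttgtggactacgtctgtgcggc
EIF1AX: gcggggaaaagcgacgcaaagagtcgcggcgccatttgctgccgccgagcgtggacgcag
EIF4EBP2: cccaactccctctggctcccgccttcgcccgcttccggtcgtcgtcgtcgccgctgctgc

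A C at the annotated start followed by at least 4 pyrimidines was present in 9 of the 35 promoters (25.7%), against 4.01% of 27305 RefSeq promoters. By group this was 4 of 7 EIF3 promoters (EIF3D, EIF3F, EIF3K and EIF3M), 2 of 3 EEF promoters (EEF1A1 and EEF2), 2 of 8 EIF2 promoters (EIF2D and EIF2S3), 1 of 9 EIF4 promoters (EIF4B) and none of the 4 EIF5 promoters. This search was added after the values were seen. Of the members with the tract, EIF3K, EEF1A1, EIF4B and EIF3F had log2 ratios from 0.69 to 1.40. EIF3D, EIF3M, EIF2S3 and EEF2 had 0.51, 0.49, 0.30 and 0.21, and EIF2D had -0.75. With the lowess fit subtracted EIF3K, EIF3F, EIF4B and EEF1A1 had 1.18, 0.56, 0.52 and 0.21. EIF3M, EIF3D and EIF2S3 then had 0.43, 0.39 and 0.30, while EEF2 and EIF2D had -0.18 and -0.68. EIF4G1, EIF3J and EIF2B3, with ratios of 0.78, 0.78 and 0.77 as deposited, are not among the members with the tract. The E-box CACGTG, read on both strands of the 300 bases, was found in 10 of 35 promoters (28.6%) against 7.27% of all, 5 of them among the 9 EIF4 promoters. The ETS core CCGGAAG was found in 8 of 35 (22.9%) against 10.6%. Matches describe these letters in these windows only.

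Of the 45 genes, 42 had a mean signal of at least 200 and were treated as measured, all of them with at least 200 on both arrays. EIF5A2 (185 in control cells and 147 after knock-down), EEF2KMT (32.9 and 29.9) and EEF1AKMT2 (7.03 and 13.7) were below this limit, where ratios are too imprecise for a direction. After knock-down 12 of the 42 genes were higher by 1.5-fold or more and 6 were lower by as much. Of all 6301 measured genes, 15.6% were that much higher and 19% that much lower, against 28.6% and 14.3% of the members. With the lowess fit subtracted 10 members were higher and 7 lower, against 978 and 1142 of all 6301 measured genes. At 2-fold, 4 members were higher (EIF3K, EIF3E, EIF3H and EEF1D) and none lower, against 4.38% and 7.3% of all measured genes. Only EIF3K and EEF1D remained past 2-fold with the lowess fit subtracted and after quantile normalization. The median log2 ratio over the members was 0.28, against 0.01 over all measured genes.

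**Figure D1:**
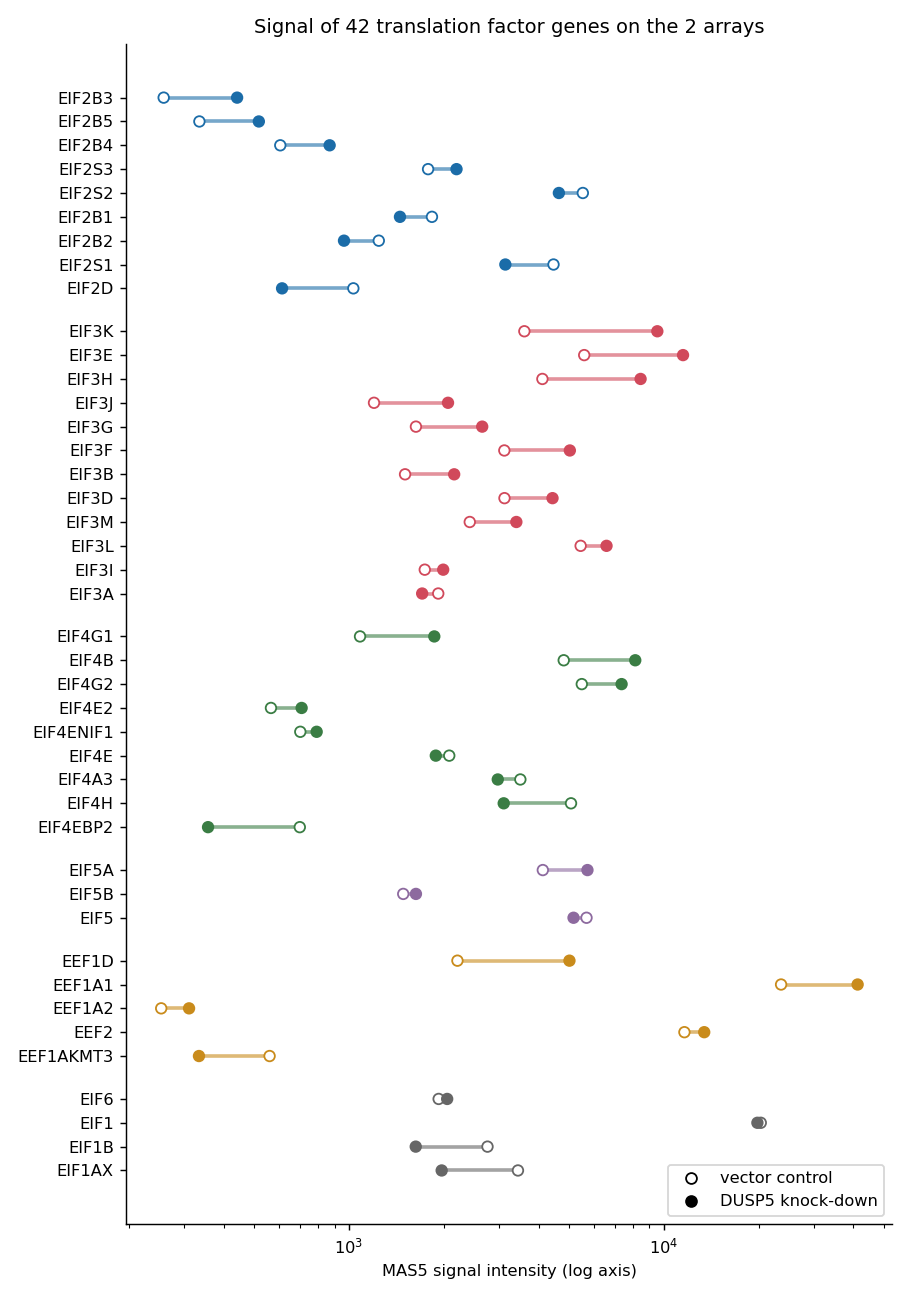
MAS5 signal intensity (log axis) of the 42 measured genes on the control array (open points) and the knock-down array (filled points), 1 array each, ordered by log2 ratio within the EIF2, EIF3, EIF4, EIF5 and EEF groups and the genes outside them (top to bottom). In the EIF3 block the filled point lies to the right of the open one for 11 of 12 genes, whereas in the EIF2 block it does so for 4 of 9.

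The groups differed most between EIF3 and EIF2. EIF3 genes had a median log2 ratio of 0.60 with 11 of 12 above 0, and EIF2 genes a median of -0.25 with 4 of 9 above 0, a difference of 0.86 (0.85 with the lowess fit subtracted and 0.87 after quantile normalization). With probe sets of the _s_at and _x_at types left out the difference was 0.52. Among all 6301 measured genes, 3176 were above 0. The reference genes GAPDH and ACTB, which do not act in translation, were also higher on the knock-down array. GAPDH had signals of 14027 and 30490 (ratio 1.12, or 0.61 with the lowess fit subtracted) and ACTB had 22250 and 37726 (ratio 0.76, or 0.18). The EIF3 median thus lay below both as deposited, and between them after the fit was subtracted (0.55). After quantile normalization the EIF3 median was 0.59, with GAPDH at 0.56 and ACTB at 0.06, so that its place beside these genes depended on the scale. The EIF2 and EIF3 groups overlapped: 4 EIF3 genes lay above every EIF2 gene, and 5 EIF2 genes lay below every EIF3 gene. EIF4, EIF5 and EEF genes lay between, with medians of 0.17, 0.13 and 0.29. The SD between the genes of a group was 0.42 for EIF3, 0.56 for EIF2, 0.61 for EIF4, 0.30 for EIF5 and 0.73 for EEF. Differences between groups are a description of these 2 arrays, since genes are not replicates of a condition.

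**Figure D2:**
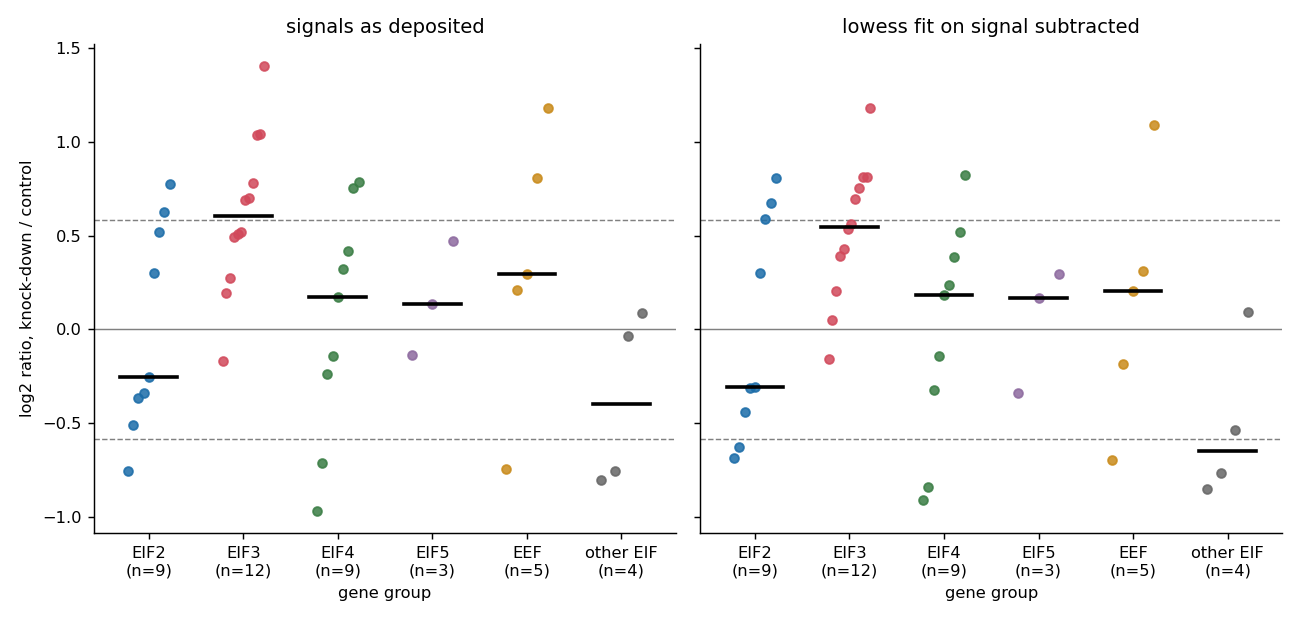
Log2 ratio of knock-down over control signals for the measured genes by group, from the signals as deposited (left) and after subtraction of the lowess fit (right). Each point is a gene, black bars are medians, dashed lines mark 1.5-fold, and the horizontal offset only separates points. The EIF3 median is 0.60 on the left and 0.55 on the right, and the EIF2 median is -0.25 and -0.31.

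eIF3 is the largest initiation factor, a complex that binds the small ribosomal subunit and holds the other factors on it. After knock-down 6 of its 12 measured subunit genes were higher by 1.5-fold or more, and none was lower by as much. Among all measured genes these shares were 15.6% and 19%. EIF3K, a subunit at the edge of the complex, had a control signal of 3606 and a knock-down signal of 9534, 2.64-fold higher with a log2 ratio of 1.40 (SD 0.26). Its other 2 probe sets had ratios of 1.37 and 1.60. EIF3L, which binds EIF3K in the complex, had signals of 5442 and 6575 and a ratio of only 0.27, which became 0.05 with the lowess fit subtracted. The subunits of this pair thus differed by more than the SD between probe sets.

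EIF3E and EIF3H, further subunits of the eIF3 octamer, were next. EIF3E had signals of 5585 and 11505 and a log2 ratio of 1.04 (0.75 with the lowess fit subtracted, SD 0.26). EIF3H had signals of 4114 and 8435 and a log2 ratio of 1.04 (0.81 with the fit subtracted). Both doubled their signal, on 1 probe set each. EIF3F, another octamer subunit, had signals of 3114 and 5028 (ratio 0.69, or 0.56 with the fit subtracted). EIF3M, from the same part of the complex, had 2419 and 3400 (ratio 0.49), and its other probe set above the limit had 0.72.

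The measured genes of the core that is shared with yeast, EIF3A, EIF3B, EIF3G and EIF3I, varied. EIF3C, also of this core, shares its probe sets with EIF3CL, and their ratios were 1.34 to 1.56. EIF3G, an RNA-binding subunit, had signals of 1632 and 2649 (ratio 0.70, SD 0.30). EIF3B, a scaffold subunit, had signals of 1507 and 2158 (ratio 0.52), just under 1.5-fold, and ratios from 0.52 to 0.67 over 3 probe sets. EIF3I, its partner, had 1741 and 1991 (ratio 0.19, less than the SD). EIF3A, the largest subunit, was the only EIF3 gene below 0, with signals of 1921 and 1708 and a ratio of -0.17. Its other probe sets had 0.04 and 0.50, so that no direction can be given for EIF3A. Outside this core, EIF3J, which is loosely bound and acts at the decoding site, had 1201 and 2063 (ratio 0.78). EIF3D, also outside the core, can bind the cap of some mRNAs and had 3118 and 4430 (ratio 0.51).

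None of the eIF2 subunit genes was 1.5-fold higher or lower as deposited. EIF2S1 (alpha), whose phosphorylation slows initiation, had signals of 4462 and 3138 and a log2 ratio of -0.51 (SD 0.26), which passed 1.5-fold with the lowess fit subtracted (-0.63) and after quantile normalization (-0.61). Another probe set of EIF2S1 had -0.85 and the dimmest had 0.27, so that no direction can be given for EIF2S1. EIF2S2 (beta) had 5529 and 4641 (ratio -0.25, or -0.44 with the lowess fit subtracted). EIF2S3 (gamma), which carries the GTP-binding site, had 1783 and 2195 and a ratio of 0.30, about the size of its SD (0.30).

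eIF2B recharges eIF2 with GTP. EIF2B3 and EIF2B5, the subunits of its catalytic arms, were the EIF2 genes that were higher by 1.5-fold or more. EIF2B3 had signals of 258 and 441 (ratio 0.77, SD 0.41) and EIF2B5 had 335 and 517 (ratio 0.63). EIF2B4, a regulatory subunit, had 605 and 868 (ratio 0.52), with 0.996 at its other probe set. The other regulatory subunits lay on the opposite side, EIF2B1 with 1834 and 1452 (ratio -0.34) and EIF2B2 with 1243 and 964 (ratio -0.37), each by little more than the SD of 0.30. EIF2D, which handles ribosomes after termination and can deliver tRNA without eIF2, had 1032 and 613. Its ratio of -0.75 (SD 0.36) was the lowest of the EIF2 genes, and as deposited it was the only one at least 1.5-fold lower.

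The EIF4 genes went both ways. EIF4G1, the scaffold that joins the cap-binding protein to the helicase, had signals of 1084 and 1866 and a log2 ratio of 0.78 (SD 0.30), with 0.51 at its other probe set. EIF4B, which stimulates the helicase, had 4809 and 8113 and a ratio of 0.75 (SD 0.26), while its dimmer probe sets had 0.51 and 0.41. The brightest had 0.52 after the lowess fit was subtracted. These were the EIF4 genes at least 1.5-fold higher. EIF4H, which has the same role as EIF4B and resembles part of it, lay on the other side with 5072 and 3100 (ratio -0.71, on 1 probe set). EIF4G2, a scaffold that does not bind eIF4E, had 5488 and 7341 (ratio 0.42, or 0.18 with the fit subtracted).

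The cap-binding protein itself differed little. EIF4E had signals of 2082 and 1887 (ratio -0.14, less than the SD of 0.30). EIF4E2, a cap-binding protein that acts in repression, had 565 and 707 (ratio 0.32), but another of its probe sets had -0.12. EIF4EBP2, an inhibitor that keeps eIF4E from the scaffold, had 698 and 357, or 51.1% of control. This ratio of -0.97 (SD 0.36) was the lowest of all members at the brightest probe set, though EIF1AX was lower (-1.20) when the probe sets of a gene were averaged, and the second probe set of EIF4EBP2, too dim for a precise ratio, went from 120 to 18.0. EIF4ENIF1, which carries eIF4E into the nucleus, had 700.4 and 789 (ratio 0.17), and EIF4A3 had 3501 and 2969 (ratio -0.24). Both of these were within the SD.

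No EIF5 gene was 1.5-fold higher or lower. EIF5A, which helps ribosomes through difficult peptide bonds and carries the amino acid hypusine, had signals of 4127 and 5720 (ratio 0.47, SD 0.26), with 0.63 and -0.04 at its other probe sets. EIF5, which triggers GTP hydrolysis on eIF2, had 5680 and 5166 (ratio -0.14) and stayed between -0.22 and 0.01 over 5 probe sets. EIF5B, the GTPase of subunit joining, had 1487 and 1632 (ratio 0.13).

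EEF1D, a guanine nucleotide exchange subunit of the eEF1 complex, had the second highest log2 ratio of all members. Its signals were 2210 and 5014, which is 2.27-fold higher (ratio 1.18, SD 0.26), and its other 3 probe sets had ratios of 0.75, 1.02 and 1.58. The ratio of EEF1D was 1.09 after the lowess fit was subtracted. EEF1A1, which delivers aminoacyl-tRNA, had 23570 and 41253 (ratio 0.81), with 0.52 to 0.84 over 4 probe sets. At this signal the value depended on the scale, and the ratio of EEF1A1 was 0.21 with the lowess fit subtracted and 0.08 after quantile normalization. EEF2, the translocase, had 11623 and 13434 (ratio 0.21), and its sign turned on both scales, to -0.18 and -0.16. EEF1A2, a form found mainly in muscle and nerve cells, had 253 and 310 (ratio 0.29, SD 0.41). EEF1AKMT3 had 560 and 334 (ratio -0.75, SD 0.41, or 59.7% of control).

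The genes outside the 5 groups act in start codon selection or on the large subunit, and 2 of the 4 were at least 1.5-fold lower. Among all measured genes this share was 19%. EIF1AX, which encodes eIF1A, had signals of 3441 and 1970 (ratio -0.80, SD 0.30). The other 3 probe sets of EIF1AX had -0.90, -1.39 and -1.71, so that the brightest gave the smallest difference. EIF1B, which is closely related to EIF1, had 2754 and 1629 (ratio -0.76, on 1 probe set). EIF1, the partner of eIF1A in scanning, had 20315 and 19821 and a ratio of -0.04 as deposited, which became -0.53 with the lowess fit subtracted and -0.62 after quantile normalization. EIF6, which keeps free large subunits apart from small ones, had 1927 and 2050 (ratio 0.09).

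**Figure D3:**
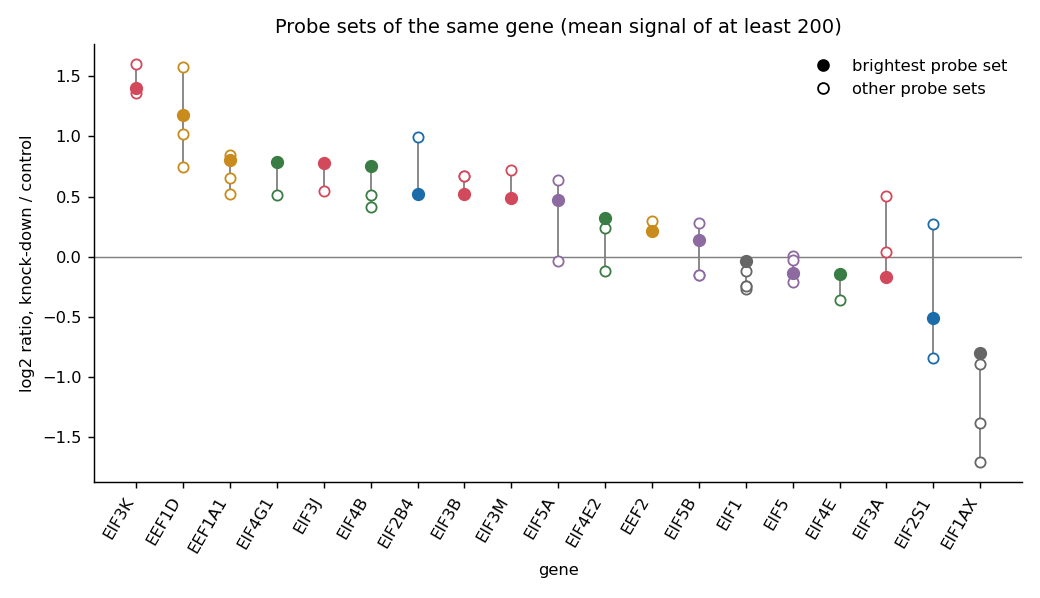
Log2 ratio of each probe set whose mean signal was 200 or more, for the 19 members that have several. Filled points are the brightest probe set, which stands for the gene in the text, open points are the others, grey lines join probe sets of a gene, and colours mark the groups as in the plot of signals. For 13 of 19 genes all probe sets lie on 1 side of 0, with EIF3K highest and EIF1AX lowest, whereas EIF2S1 and EIF3A cross it.

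Of the 42 measured genes, 19 had at least 2 probe sets above the limit. In 13 of these all such probe sets had the same sign. The exceptions were EIF2S1, EIF3A, EIF4E2, EIF5, EIF5A and EIF5B, with ratios of -0.51 to 0.47 at the probe set used. On 12 probe sets that name several genes, among them a symbol that meets the rule, all log2 ratios were above 0, from 0.14 to 1.56. Of all 6301 measured genes, 3176 were above 0. The 12 probe sets are not 12 separate genes, since EIF3C, EEF1G and EIF4A1 each occur on several. Most had a mean signal over 3000, where the median log2 ratio of all probe sets was 0.26. The 12 probe sets can also match more than 1 gene, such as EIF3C and its near copy EIF3CL.

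**Figure D4:**
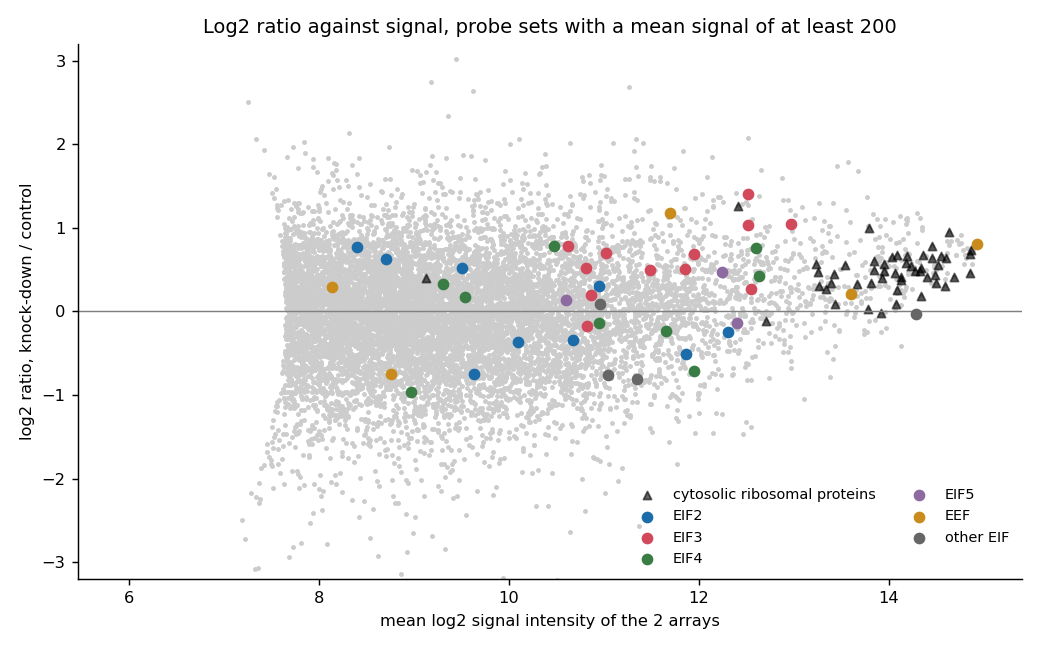
Log2 ratio against the mean log2 signal intensity of both arrays for 10184 probe sets whose mean signal was 200 or more (grey), with the measured members coloured by group and cytosolic ribosomal proteins as black triangles. A further 11 probe sets are beyond the vertical axis. The triangles sit mostly at the highest signals, where the ratios of all probe sets tend upwards, and the EIF3 genes lie at lower signals.

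Cytosolic ribosomal protein genes, the closest group by function, had a median log2 ratio of 0.47 over 50 measured genes. As deposited 14 of these were at least 1.5-fold higher and none lower, but only 1 was higher with the lowess fit subtracted or after quantile normalization. As deposited they ranged from RPS25 (-0.12), RPL37 (-0.02) and RPL38 (0.03) to RPL3 (0.95), RPL29 (1.002) and RPL14 (1.26). With the lowess fit subtracted their median was 0.02, and after quantile normalization it was -0.02. The EIF3 median was 0.55 and 0.59 on the same scales. The median of the mean signals was 17728 for the ribosomal protein genes and 3342 for the EIF3 genes. Both scales bring the ratios at a given signal level towards 0, and ribosomal protein genes sit mostly at the highest signals. Their medians near 0 on these scales are therefore partly set by construction. Whether the groups differ beyond chance was not tested.

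Other translation genes were read from lists by role. Among 7 measured termination and recycling genes the median log2 ratio was 0.28 and none was 1.5-fold lower. MCTS1, which acts in reinitiation and recycling, had signals of 1446 and 3002 (ratio 1.05), and the release factor ETF1 had 1716 and 2596 (ratio 0.60). Of 4 poly(A)-binding genes, PABPC1 had 15504 and 23437 (ratio 0.60, or 0.11 with the lowess fit subtracted) and PAIP1, which links the poly(A)-binding protein to eIF4A, had 2792 and 1248 (ratio -1.16). Of 3 measured mitochondrial factors, TUFM, the mitochondrial elongation factor that delivers tRNA, had 2487 and 6388 (ratio 1.36), and its exchange factor TSFM had 828 and 1561 (ratio 0.92). DHPS, the first enzyme of hypusine synthesis on eIF5A, had 526 and 1059 (ratio 1.01), whereas the second, DOHH, had 0.25. The diphthamide enzymes DPH2 and DPH5, which modify eEF2, had 0.31 and -0.30.

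Genes that act on initiation from outside the factors were read from 2 further lists. Of 9 listed controls that are not members, 5 had a probe set with 1 gene symbol, and all 5 were measured. None of the 5 was above 0 and 3 were at least 1.5-fold lower. PPP1R15A (GADD34), which directs the dephosphorylation of eIF2 alpha, had signals of 4485 and 1221 (ratio -1.88). EIF2AK2 (PKR), an interferon-induced eIF2 kinase, had 3336 and 1506 (ratio -1.15), and EIF2AK3 (PERK), the eIF2 kinase of the endoplasmic reticulum, had 386 and 239 (ratio -0.69). EIF2AK1 had -0.02 and EIF4EBP1, a relative of EIF4EBP2, had -0.38. Of 10 measured genes of mTORC1 and its inputs 3 were at least 1.5-fold lower and none that much higher, with a median of -0.21, and 3 were above 0, with TSC1 the highest (0.43). The lower ones included DDIT4 (2187 and 579, ratio -1.92), an inhibitor of mTORC1, and MLST8 (1311 and 725, ratio -0.85), a subunit of the complex. RPS6KB2 (276 and 156, ratio -0.82, SD 0.41), a kinase below mTORC1, was lower too. Its mean signal of 216 was just above the limit for measured genes, and its knock-down signal was below that limit. Among all 6301 measured genes, 19% were at least 1.5-fold lower. Both lists were chosen with earlier results of these data known, and whether either differs from this share beyond chance was not tested.

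**Figure D5:**
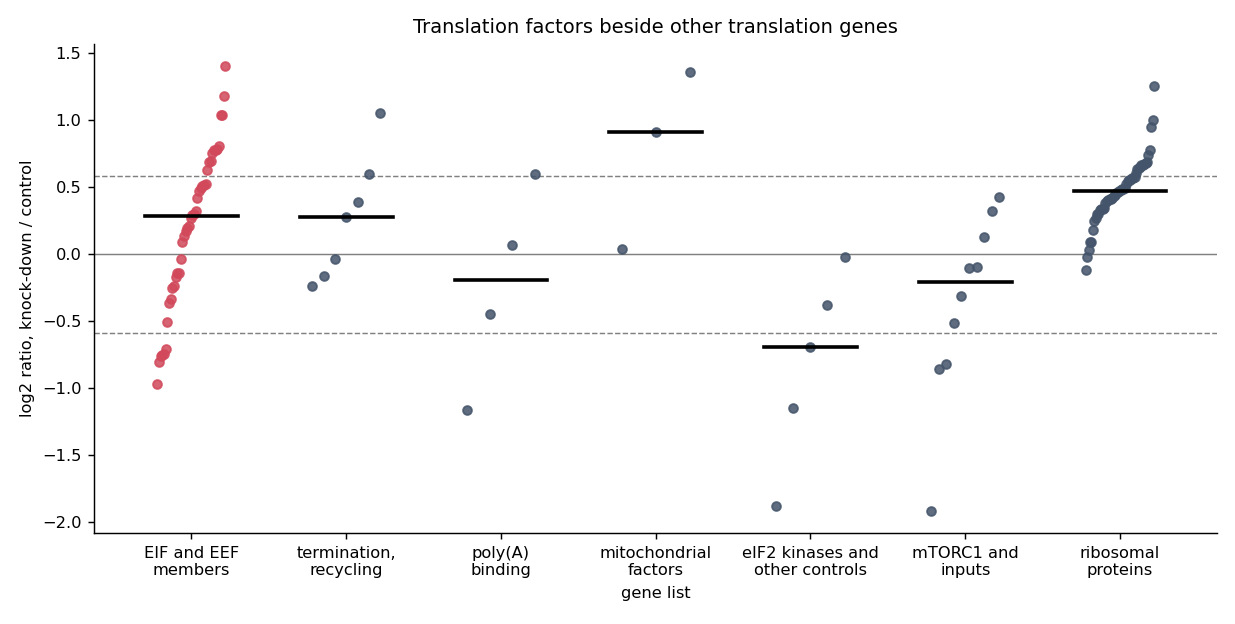
Log2 ratio of knock-down over control signals for the measured EIF and EEF genes (red) and for 6 lists of other translation genes (blue). Each point is a gene, black bars are medians, dashed lines mark 1.5-fold, and the horizontal offset only separates points. The members spread from -0.97 to 1.40 around a median of 0.28, and the 5 eIF2 kinases and other controls lie at or below -0.02.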

How the data were processed

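RNA of control and DUSP5 knock-down L-428 cells was measured on 1 HG_U133A array each. The authors processed the Cel files in Affymetrix Expression Console by MAS5, which subtracts mismatch probe signal, so that low values are imprecise. The deposited values are linear intensities, scaled per array to a common target. Leaving out 68 control probe sets, the 2016 platform annotation gave 1 symbol for 19065 probe sets, which were named, several for 1043 and none for 2107. Each gene was represented by whichever of its probe sets had the highest mean signal. The log2 ratio of knock-down over control was computed with no further normalization, and genes with a mean signal under 200 were treated as not measured. The number of arrays limits the precision. The members and lists were chosen with earlier results of these data known, every member could be named, and other lists were named by their 1.5-fold genes or extremes. Alternatives were quantile normalization, median centring, a lowess fit (span 0.3), 32 added to signals, other signal limits and folds, and other choices of probe sets. The steps were tested on simulated data. Software was numpy 2.4.6, pandas 2.3.3, statsmodels 0.14.6 and matplotlib 3.10.9 under Python 3.11.15.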

Additional observations from a re-analysis of the deposited data

How the results depend on the processing

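Over the signals as deposited and 9 alternatives that give group medians, the EIF2 median was the lowest of the 5 groups in 10 of 10 settings, from -0.34 to -0.02, and the EIF3 median was the highest in 9, from 0.50 to 0.64. The exception was a mean signal of at least 500, where the EEF median was 0.81 over the 3 genes left, against 0.29. Not all 10 settings were separate checks of EIF3 against EIF2. Median centring, no filter on low signal and adding probe sets that name several genes left both medians as they were or shifted them alike. The difference was therefore 0.86 in each of these by construction. Only probe sets with 1 symbol that meets the rule were added. Those of EIF3C and EIF3CL, with ratios from 1.34 to 1.56, were left out. With no filter on low signal the EIF5 median turned from 0.13 to -0.0015, as EIF5A2 was added. The counts of 12 higher and 6 lower members became 5 and 3 of 23 when _s_at and _x_at probe sets were left out, and 4 and 0 at 2-fold, both by construction. The EIF3 and EIF2 medians differed by 0.52 to 0.94, the least when _s_at and _x_at probe sets were left out. Alternatives that can move at least some genes gave 191 values of single genes. Of these, 178 moved by less than the probe set SD or not at all, and 13 by more. Part of the 178 could not move by construction. Averaging left genes with 1 probe set above the limit as they were. Leaving out _s_at and _x_at probe sets did the same for genes that kept their probe set. None of the genes at least 1.5-fold higher or lower changed sign. Of the 12 higher members 9 were still 1.5-fold higher with the lowess fit subtracted and 10 after quantile normalization, and all 6 lower members stayed lower on both scales. No paired analysis was possible because control and knock-down cells had 1 array each. Low signal over background limits EIF5A2, EEF2KMT and EEF1AKMT2.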
